A study of Mus musculus with 8 samples.

Results

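Ribosome biogenesis and RNA polymerase I transcription were examined through 43 named genes, a fixed list of symbols matched to the rows of the count table. All 43 were among its 42454 rows, and all 43 were among the 11081 genes that passed the filter on low counts. The list holds 5 genes of RNA polymerase I transcription, 7 of the box C/D particles and the multifunctional nucleolar proteins and 4 of the box H/ACA particle. A further 11 are grouped with the small subunit processome, 4 with late small subunit maturation and 12 with large subunit assembly. They lie on 18 chromosomes.

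RNA was measured in RAW264.7, a mouse macrophage-like tumour line, in 8 libraries of poly(A) RNA in 4 labelled groups of 2. The group labelled mock received DMSO, the solvent. The group labelled TubB received Tubuloside B, a phenylethanoid glycoside from plants, whose dose is not stated in the labels. The group labelled LPS_IFNg was stimulated for 24 h with 2 inflammatory activators of macrophages, 10 ng/ml of lipopolysaccharide and 20 ng/ml of interferon-gamma. The group labelled LPS_IFNg_TubB received that stimulus and the compound. No time was stated for the groups without the stimulus. All groups are of 1 transformed line, and the labels do not tell whether the 2 libraries of a group are separate cultures. P-values then measure only the spread between these libraries, which may be technical.

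Markers of the stimulus went against the labels. Nos2, the inducible nitric oxide synthase, averaged 166 ± 14.6 CPM (SD, n = 2) for the mock label and 183 ± 23.2 for LPS_IFNg, where CPM is a gene's counts scaled to a common library size. It averaged 6363 ± 850.1 CPM for the TubB label and 6792 ± 900.4 for LPS_IFNg_TubB. Ptgs2, the inducible cyclooxygenase, followed the same order, with 43.7 ± 0.385 and 43.99 ± 1.22 CPM against 1781 ± 599.5 and 1756 ± 413. Il6, a cytokine gene, gave 1 count in mock and 0 in LPS_IFNg, but 613 in TubB and 568 in LPS_IFNg_TubB, each summed over both libraries. Every difference below is therefore given between labels, with "compound label" for the 4 libraries labelled TubB or LPS_IFNg_TubB. Whether it belongs to the compound, to the stimulus or to both cannot be told apart from these libraries.

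Library totals were 4767894 to 8413834 counts. The 12 macrophage markers were all measured and summed to 8732 to 9056 CPM without the compound label and 10320 to 10990 with it. They did not move together. Averaged over the 2 comparisons described below, 7 were called higher, 2 lower and 3 neither, with log2 changes from -1.24 to 2.76. Of all tested genes, 31.7% were higher and 31.5% lower. Of 6 neutrophil markers only S100a8 and Csf3r passed the filter, and the list summed to 6.46 to 7.54 CPM without the label and 37.6 to 57.1 with it, while S100a9, Ly6g and Mpo were at 0 counts in all 8 libraries. Fibroblast, epithelial, T cell and B cell markers summed to at most 2.37 CPM in any library. Of 4 dendritic cell markers only Xcr1 and Itgax passed the filter, and the list summed to 40.4 to 43.7 CPM without the label and 40.1 to 54.5 with it. Xcr1 was higher (5.50, SE 0.49, log2) and Itgax lower (-0.36, SE 0.10), while Flt3 was at 0 counts. With the sum so little raised, Xcr1 held only a small part of it without the label. The 4 osteoclast markers summed to 8152 to 9167 and 7614 to 8668 CPM, nearly all from Ctsk, and none of the 3 tested was called. The 50 most abundant genes held 15.6% to 15.99% of the counts without the compound label and 18.1% to 19.1% with it. Their part in the results below was not tested.

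A ribosome begins in the nucleolus, where RNA polymerase I copies the ribosomal DNA repeats into a long precursor. Small nucleolar RNAs (snoRNAs) packed in box C/D and box H/ACA particles guide the methylation and pseudouridylation of that precursor, and large assemblies then cut and fold it into the small and the large subunit. Growing cells spend much of their transcription on this work, and the MYC transcription factor, which binds the E-box CACGTG, is a known activator of many of its genes. In macrophages, inflammatory activation is known to be accompanied by changes of growth and protein synthesis.

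The upstream sequences of 6 genes are shown to set the genes whose mRNA differed most between labels beside genes that did not pass the test. Each is the 250 bases before a RefSeq transcript start in GRCm38.p6, written 5′ to 3′ in the direction of the gene, and none of these windows overlaps another annotated gene. Capitals mark the E-box CACGTG and the ETS core CCGGAAG, searched on both strands. Dkc1, Rrp1b and Nolc1 had the lowest fold changes under the compound label, and Rrn3 and Pno1 did not pass the test. Nop2 belongs to neither kind and was lower by a middling amount. Nop2 and Rrn3 are among the only 3 members with CACGTG in a window. These 6 windows therefore do not show how the motif goes with the change over the list. The windows lie at chrX:75095604-75095853 (plus strand, Dkc1), chr17:32035912-32036161 (plus strand, Rrp1b), chr19:46075597-46075846 (plus strand, Nolc1), chr6:125131633-125131882 (plus strand, Nop2), chr16:13780449-13780698 (plus strand, Rrn3) and chr11:17211590-17211839 (minus strand, Pno1).
Dkc1: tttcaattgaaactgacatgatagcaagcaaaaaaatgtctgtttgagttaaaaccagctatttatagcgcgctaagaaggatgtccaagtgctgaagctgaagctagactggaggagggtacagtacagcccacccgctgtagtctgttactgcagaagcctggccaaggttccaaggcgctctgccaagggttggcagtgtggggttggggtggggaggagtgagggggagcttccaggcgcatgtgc
Rrp1b: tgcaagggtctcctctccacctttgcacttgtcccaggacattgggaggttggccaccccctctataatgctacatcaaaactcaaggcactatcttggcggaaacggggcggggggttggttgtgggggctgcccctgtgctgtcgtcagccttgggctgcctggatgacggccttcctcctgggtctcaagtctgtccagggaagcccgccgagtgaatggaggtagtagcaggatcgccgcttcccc
Nolc1: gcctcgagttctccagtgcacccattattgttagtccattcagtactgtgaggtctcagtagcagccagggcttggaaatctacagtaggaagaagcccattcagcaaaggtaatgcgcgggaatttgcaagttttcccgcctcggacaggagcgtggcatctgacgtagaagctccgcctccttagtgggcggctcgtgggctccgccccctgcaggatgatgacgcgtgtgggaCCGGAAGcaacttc
Nop2: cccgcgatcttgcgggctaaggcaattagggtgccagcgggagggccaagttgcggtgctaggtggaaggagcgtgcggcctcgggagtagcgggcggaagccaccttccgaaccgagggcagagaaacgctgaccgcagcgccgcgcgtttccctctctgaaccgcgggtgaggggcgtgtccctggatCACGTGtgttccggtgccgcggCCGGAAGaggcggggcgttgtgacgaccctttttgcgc
Rrn3: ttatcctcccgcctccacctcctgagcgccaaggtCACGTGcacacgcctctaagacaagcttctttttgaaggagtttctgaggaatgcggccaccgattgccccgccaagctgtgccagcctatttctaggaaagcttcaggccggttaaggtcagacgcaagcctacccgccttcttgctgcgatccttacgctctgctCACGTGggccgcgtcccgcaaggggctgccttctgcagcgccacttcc
Pno1: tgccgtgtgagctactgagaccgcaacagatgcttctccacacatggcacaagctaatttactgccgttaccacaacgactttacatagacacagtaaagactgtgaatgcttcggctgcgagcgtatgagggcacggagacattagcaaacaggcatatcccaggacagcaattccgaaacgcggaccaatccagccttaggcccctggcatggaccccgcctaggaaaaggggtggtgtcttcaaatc

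Rrn3, whose level did not pass the test, had CACGTG at 2 places, ending 209 and 42 bases before the transcript start. Nop2 had CACGTG 54 bases before its start and CCGGAAG 31 bases before it, and Nolc1 had CCGGAAG 7 bases before its start. The windows of Dkc1, Rrp1b and Pno1 held neither motif. Over the 38 members with a RefSeq promoter entry, CACGTG was in the 250 bases of 3 genes (7.89%: Nop2, Rrn3 and Utp18), against 10.3% of 8674 tested genes. A gene can have several windows. Counted by window, CACGTG was in 6.38% for members, 8.56% for tested genes and 6.02% of all 32851 windows. CCGGAAG was in 9 of 38 genes (23.7%), against 16.8% of the tested genes. By window it was in 19.1% for members, 14.2% for tested genes and 6.91% of all windows. The SP1 box GGGCGG was in 65.8% of the members and 63.6% of the tested genes, and CCAAT was in 31.6% and 40.8%. CAGCTG, an E-box of TFAP4, was in 21.1% and 13.4%. The median GC content was 59.6% both in member windows and in windows of tested genes. These matches are letters in a window and not binding sites, and bases further upstream or after the transcript start were not searched.

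Most of the 43 mRNAs were lower under the compound label, and none was higher. The list was chosen with earlier results of these data known, so the shares of all genes beside its counts are not a test of it. Changes are log2 fold changes from edgeR's quasi-likelihood test with its standard error (SE), called at a Benjamini-Hochberg adjusted p under 0.05 over all 11081 genes. In the libraries labelled TubB against mock, 36 of 43 members were lower, where 24.9% of all tested genes were lower, and 0 were higher, where 26.3% were. In the libraries labelled LPS_IFNg_TubB against LPS_IFNg, which share no library with the first comparison, 38 were lower (25.0% of all genes) and 0 were higher (26.2%). Averaged over both comparisons, the compound label went with 39 lower members (31.5% of all genes) and 0 higher (31.7%). No member was higher at an unadjusted p under 0.05 either, and DESeq2, limma-voom and limma on the rlog values also called 0 higher.

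The median log2 fold change of the members was -0.68 in the first comparison, -0.70 in the second and -0.71 in the average. The medians over all genes were -0.01, -0.01 and -0.02. Single members ranged from -1.86 (Dkc1) to 0.15 (Noc4l) in the average. At least 2-fold lower were 10, 11 and 9 members in turn, where 5.65%, 6.24% and 6.43% of all genes were. Lower in both separate comparisons were 35 members, against 20.7% of all genes.

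In the 2 separate comparisons some calls were lost when 1 library was left out. In TubB against mock, Polr1a, Polr1e, Nop14, Ltv1, Tsr1, Nip7 and Noc3l lost their call without mock replicate 1 (adjusted p = 0.0649 to 0.330), and Heatr1 without mock replicate 2 or TubB replicate 1 (adjusted p = 0.0868 and 0.114). In LPS_IFNg_TubB against LPS_IFNg, Polr1a, Utp15, Nop14, Rrp12, Ltv1 and Noc3l lost theirs without LPS_IFNg replicate 1 (adjusted p = 0.0526 to 0.278), and Polr1e and Pes1 without LPS_IFNg replicate 2 (adjusted p = 0.0762 and 0.108). Leaving out any other library lost calls of these same genes only.

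Read library by library, 37 members had all 4 libraries with the compound label below all 4 without it, a pattern that 29.1% of tested genes showed, and 0 had the reverse, which 29.7% showed. The groups overlapped for 6 members. In the plot of the members by library, the 4 libraries with the compound label form a cloud to the left for all but a few genes, and the libraries labelled LPS_IFNg lie on those labelled mock.

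**Figure D1:**
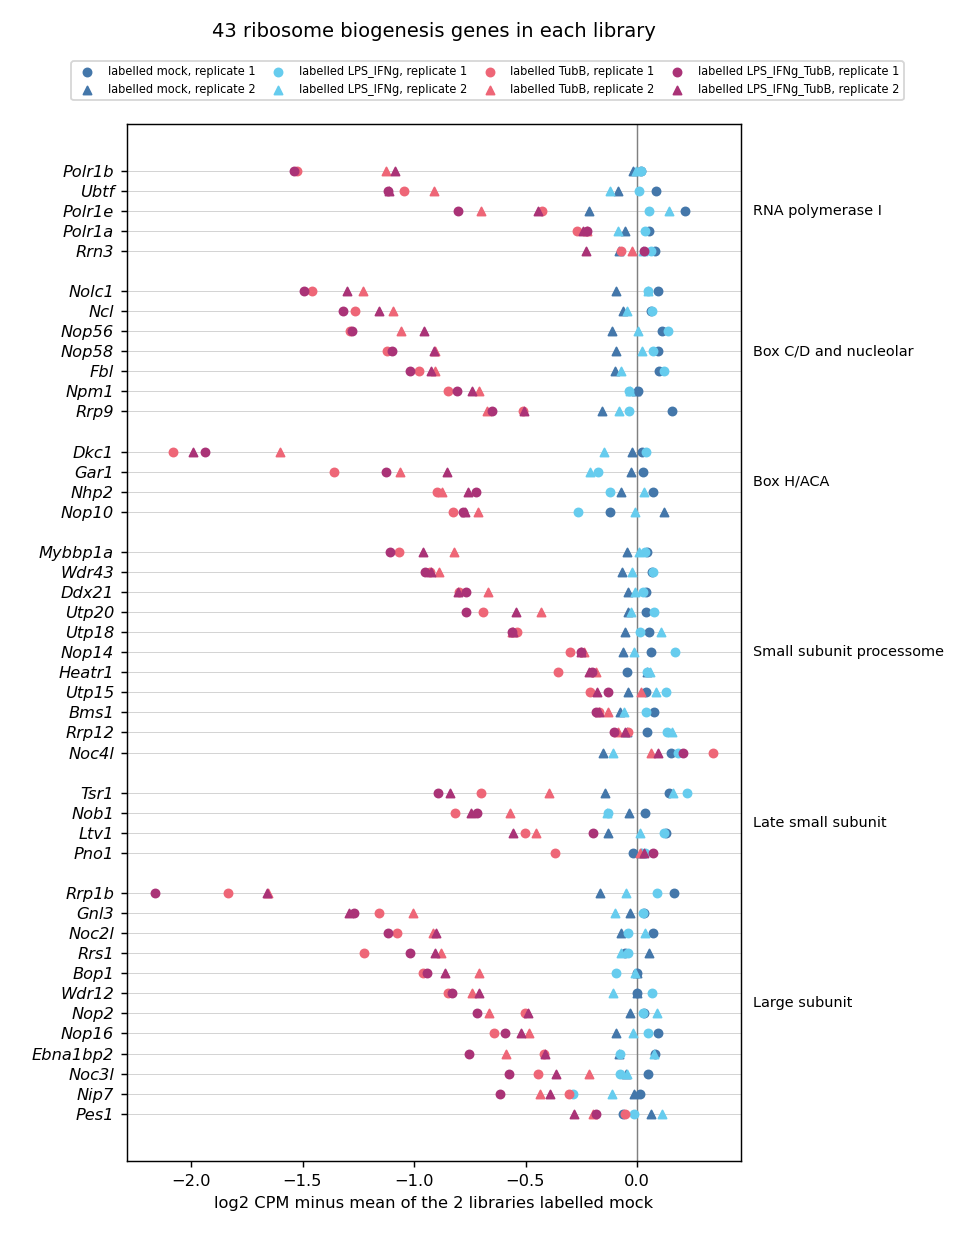
Each point is 1 library: the x axis is log2 CPM minus the mean of the 2 libraries labelled mock, the rows are the 43 genes grouped by role, colours are the labelled groups and shapes the replicate numbers. In 37 rows all 4 points with the compound label lie to the left of the 4 others, while Rrn3, Noc4l, Pno1 and Pes1 are among the 6 rows where they overlap.

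As a share of the library, the 43 genes held 0.971% to 1.04% of the counts in the 4 libraries without the compound label and 0.458% to 0.522% in the 4 with it. Their summed level was 9008 to 9630 CPM and 5026 to 5522 CPM. Ncl and Npm1 made up 34.9% to 35.6% of the members' counts without the label and 30.5% to 31.3% with it. These 2 genes lead the sum. In bulk RNA, fewer cells of a kind and less of an mRNA per cell cannot be told apart.

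The RNA polymerase I group was uneven. Polr1b, the second-largest catalytic subunit of the enzyme (chromosome 2, 129100970 to 129128060, plus strand), had 74.1 and 72.4 CPM in the libraries labelled mock, 74.2 and 73.0 in LPS_IFNg, 25.3 and 33.4 in TubB and 25.02 and 34.4 in LPS_IFNg_TubB. Its level with the compound label was below every library without it, and replicate 1 was the lower one in both groups. The average log2 fold change was -1.29 (SE 0.10, edgeR adjusted p = 2.47e-12). Ubtf, the architectural factor UBF that holds ribosomal DNA open and recruits the polymerase (chromosome 11, 102304560 to 102323649, minus strand), had 221 and 196 CPM in mock, 209 and 191 in LPS_IFNg, 100.4 and 110.3 in TubB and 95.7 and 95.8 in LPS_IFNg_TubB. The groups did not overlap, and the average change was -1.02 (SE 0.06, edgeR adjusted p = 1.25e-14).

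Polr1e, which encodes the PAF53 subunit, was scarce, with 16.6 and 12.3 CPM in mock, 14.8 and 15.8 in LPS_IFNg, 10.5 and 8.67 in TubB and 8.04 and 10.4 in LPS_IFNg_TubB. Its change was -0.66 (SE 0.17, edgeR adjusted p = 0.00119), and its TubB against mock value of -0.61 became -0.37 (adjusted p = 0.330) without mock replicate 1. Polr1a, the largest catalytic subunit, had 158 and 147 CPM in mock, 156 and 144 in LPS_IFNg, 126 and 130.4 in TubB and 131 and 129 in LPS_IFNg_TubB. The groups did not overlap, and the change was -0.23 (SE 0.06, edgeR adjusted p = 0.00144). Polr1a and Polr1b together form the active centre of the enzyme, and their changes were -0.23 and -1.29.

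Rrn3, the initiation factor TIF-IA that makes the polymerase competent to start, had 127 and 113 CPM in mock, 125 and 122 in LPS_IFNg, 114 and 118 in TubB and 122 and 102 in LPS_IFNg_TubB. These ranges overlapped, and the change of -0.10 (SE 0.07, edgeR adjusted p = 0.213) did not pass the test. Per kilobase of exon, the mock level of Rrn3 was 33.3 CPM, that of Polr1a 24.1, of Ubtf 20.6, of Polr1b 13.4 and of Polr1e 3.91. With upper-quartile factors the change was -0.18 (adjusted p = 0.0187) and with library totals alone -0.31 (adjusted p = 0.000235), settings under which the median of all genes was -0.10 and -0.23.

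All 7 genes of the box C/D particles and the multifunctional nucleolar proteins were lower. Nolc1 encodes the nucleolar phosphoprotein Nopp140, a chaperone of small nucleolar particles (chromosome 19, 46075847 to 46085543, plus strand). It had 450.2 and 395 CPM in mock, 437 and 436 in LPS_IFNg, 154 and 179.5 in TubB and 149.7 and 171 in LPS_IFNg_TubB. The 4 libraries with the compound label were below 180 CPM and the others above 390, a change of -1.39 (SE 0.06, edgeR adjusted p = 3.84e-17). This is the gene printed above with an ETS core next to its start.

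Ncl encodes nucleolin, an abundant nucleolar RNA-binding protein (chromosome 1, 86344719 to 86359455, minus strand). Its level was 2145 and 1965 CPM in mock, 2152 and 1991 in LPS_IFNg, 853 and 961 in TubB and 822 and 921 in LPS_IFNg_TubB. That was the largest drop in CPM of the list, with a change of -1.21 (SE 0.05, edgeR adjusted p = 7.33e-18). Nop56, a core scaffold of the box C/D particle, had 275 and 234 CPM in mock, 279.5 and 254 in LPS_IFNg, 104 and 122 in TubB and 104 and 130.5 in LPS_IFNg_TubB, a change of -1.17 (SE 0.08). The groups of Ncl and of Nop56 did not overlap.

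The other genes of this group were lower by differing amounts. Nop58, the partner scaffold of Nop56, had a change of -1.03 (SE 0.07), and Fbl, the methyltransferase fibrillarin, -0.97 (SE 0.07). Rrp9, which binds the U3 snoRNA, had the smallest change of the group, -0.56 (SE 0.09). Npm1, the histone and ribosomal protein chaperone nucleophosmin, had the highest level per kilobase of all members in mock, 354.5 CPM against 236 for Ncl, and a change of -0.76 (SE 0.05).

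The box H/ACA particle, which makes pseudouridine and also stabilises telomerase RNA, has 4 core proteins, and all 4 genes were lower. Dkc1 encodes dyskerin, its pseudouridine synthase (chromosome X, 75095854 to 75109776, plus strand). It had 130.5 and 126 CPM in mock, 132 and 116 in LPS_IFNg, 30.1 and 42.1 in TubB and 33.3 and 32.0 in LPS_IFNg_TubB. The catalytic gene had the lowest fold change of all 43 members, -1.86 (SE 0.09, edgeR adjusted p = 3.48e-17), or 3.64-fold lower.

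Gar1, needed for catalysis by the particle, had 63.8 and 61.3 CPM in mock, 55.3 and 54.0 in LPS_IFNg, 24.2 and 29.8 in TubB and 28.5 and 34.5 in LPS_IFNg_TubB, a change of -0.99 (SE 0.10). Nhp2, a structural core protein, had 179 and 162 CPM in mock, 157 and 174 in LPS_IFNg, 91.4 and 92.8 in TubB and 103 and 101 in LPS_IFNg_TubB, a change of -0.79 (SE 0.06). Neither gene's groups overlapped. Nop10, the smallest core protein, had a change of -0.71 (SE 0.10), so the 4 subunits of 1 particle ranged over more than 1 log2 unit, with Dkc1 apart from the other 3.

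**Figure D2:**
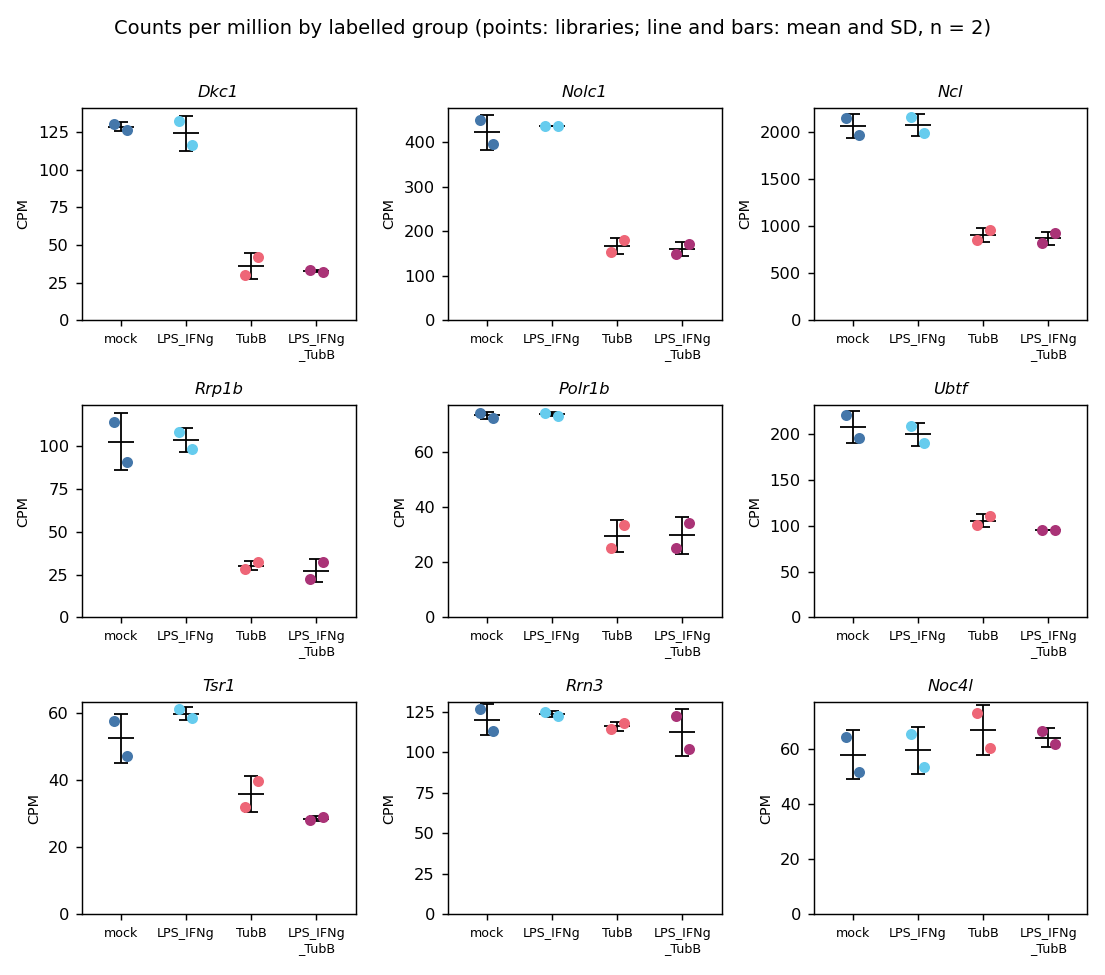
CPM (y axis, from 0) of 9 members in the 4 labelled groups (x axis), with points for libraries and a line and bars for the mean and SD (n = 2). Dkc1, Nolc1, Ncl, Rrp1b, Polr1b, Ubtf and Tsr1 are lower in both groups with the compound label, while the groups overlap for Rrn3 and Noc4l.

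The small subunit processome is the large particle that forms on the 5′ part of the precursor. The role group named after it also counts the nucleolar proteins Mybbp1a and Ddx21. In this group 9 of 11 genes were lower, with changes from -0.99 to 0.15. Mybbp1a, a nucleolar MYB-binding protein, had 584 and 549 CPM in mock, 581 and 570.0 in LPS_IFNg, 270.1 and 320.5 in TubB and 263 and 291 in LPS_IFNg_TubB, a change of -0.99 (SE 0.06). Wdr43, the UTP5 subunit, had 182 and 166 CPM in mock, 182 and 171 in LPS_IFNg, 90.9 and 93.6 in TubB and 89.5 and 91.2 in LPS_IFNg_TubB, a change of -0.94 (SE 0.06). Ddx21, an RNA helicase of the nucleolus, had 461 and 436 CPM in mock, 456 and 446 in LPS_IFNg, 258 and 282 in TubB and 263 and 257 in LPS_IFNg_TubB, a change of -0.76 (SE 0.05). In each of these 3 genes the 4 libraries with the compound label lay below the others by more than the distance between replicates.

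Utp20 and Utp18, further subunits of the processome, were lower by -0.61 (SE 0.07) and -0.59 (SE 0.08). The others were lower by much less. Nop14 had -0.30 (SE 0.07), the scaffold Heatr1 -0.26 (SE 0.06), Utp15 -0.17 (SE 0.07, adjusted p = 0.0425) and the GTPase Bms1 -0.16 (SE 0.06, adjusted p = 0.0225). The calls of Utp15 and Bms1 were lost with DESeq2 (adjusted p = 0.130 and 0.0934). That of Bms1 was also lost without replicate 1 of any group (adjusted p = 0.0537 to 0.140), and that of Utp15 without any library other than TubB replicate 2 (adjusted p = 0.0516 to 0.181).

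In the processome group, 2 genes did not pass the test. Rrp12 had 104 and 97.5 CPM in mock, 110.4 and 112 in LPS_IFNg, 97.7 and 94.6 in TubB and 93.7 and 96.8 in LPS_IFNg_TubB, a change of -0.14 (SE 0.06, edgeR adjusted p = 0.0521). Noc4l, the partner of Nop14, was the 1 member with a positive change in the average. It had 64.2 and 51.8 CPM in mock, 65.5 and 53.5 in LPS_IFNg, 73.1 and 60.3 in TubB and 66.6 and 61.6 in LPS_IFNg_TubB. Its 0.15 (SE 0.09, edgeR adjusted p = 0.17) passed only without TubB replicate 2, at 0.23 (adjusted p = 0.0352), and was -0.07 with library totals alone.

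Late maturation of the small subunit takes place partly in the cytoplasm, and 3 of its 4 genes were lower. Tsr1, a GTPase-like factor on the late particle, had 57.6 and 47.3 CPM in mock, 61.1 and 58.4 in LPS_IFNg, 32.1 and 39.7 in TubB and 28.0 and 29.1 in LPS_IFNg_TubB, a change of -0.80 (SE 0.10). Tsr1 shares 46.3% of its exon bases with Srr on the other strand, and the counting did not use strand, so reads of the 2 genes cannot be told apart there. Nob1, the nuclease that makes the last cut of 18S RNA, had 77.3 and 73.4 CPM in mock, 68.8 and 68.6 in LPS_IFNg, 42.6 and 50.6 in TubB and 45.7 and 44.8 in LPS_IFNg_TubB, a change of -0.64 (SE 0.08).

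Ltv1, an export and assembly factor, had 54.0 and 45.0 CPM in mock, 53.7 and 49.8 in LPS_IFNg, 34.7 and 35.9 in TubB and 42.9 and 33.4 in LPS_IFNg_TubB, a change of -0.47 (SE 0.10). In the comparison with LPS_IFNg its value of -0.45 became -0.27 (adjusted p = 0.195) without LPS_IFNg_TubB replicate 2. Pno1, the partner of Nob1 on the late particle, did not pass the test, with 93.5 and 95.8 CPM in mock, 97.1 and 96.0 in LPS_IFNg, 73.3 and 95.6 in TubB and 99.6 and 96.7 in LPS_IFNg_TubB. Only TubB replicate 1 stood below the rest, and without it the change of -0.06 (SE 0.07, edgeR adjusted p = 0.479) became 0.02. The nuclease and its partner thus stood at -0.64 and -0.06.

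All 12 large subunit genes were lower in the average. Rrp1b, a nucleolar protein of 60S assembly (chromosome 17, 32036162 to 32062865, plus strand), had 114 and 90.7 CPM in mock, 108 and 98.5 in LPS_IFNg, 28.3 and 32.2 in TubB and 22.5 and 32.0 in LPS_IFNg_TubB. It had the second-lowest change of the list, -1.82 (SE 0.10, edgeR adjusted p = 1.22e-13), or 3.54-fold lower. Gnl3, the nucleolar GTPase nucleostemin of proliferating cells, had 178 and 171 CPM in mock, 178 and 163 in LPS_IFNg, 78.2 and 86.8 in TubB and 72.3 and 71.2 in LPS_IFNg_TubB, a change of -1.16 (SE 0.06). Noc2l had 171 and 155 CPM in mock, 158 and 167 in LPS_IFNg, 76.9 and 86.1 in TubB and 74.8 and 86.7 in LPS_IFNg_TubB, a change of -0.99 (SE 0.07). None of these 3 genes had overlapping groups, although 23.5% of the exon bases of Noc2l are shared with genes on the other strand.

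Pes1, Bop1 and Wdr12 encode the 3 partners of 1 complex, PeBoW, which is needed to process the large subunit RNAs. Bop1 had a change of -0.83 (SE 0.06) and Wdr12 of -0.77 (SE 0.07). Pes1 had 145 and 158 CPM in mock, 150.1 and 164 in LPS_IFNg, 146 and 132 in TubB and 133 and 125 in LPS_IFNg_TubB, a change of -0.21 (SE 0.06, adjusted p = 0.00443) with overlapping groups. Its call was absent in TubB against mock (adjusted p = 0.22). The call of Pes1 in the average was lost with limma on the rlog values (-0.13, adjusted p = 0.0569).

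The remaining large subunit genes covered the range between. Rrs1, which helps to load the 5S particle, had a change of -0.97 (SE 0.07), and the RNA methyltransferase Nop2 of -0.62 (SE 0.06). Nop16 had -0.56 (SE 0.08), and Ebna1bp2 -0.54 (SE 0.08), where 21.1% of the exon bases of the latter overlap other genes. Noc3l, the partner of Noc2l, had -0.36 (SE 0.09) and Nip7 -0.34 (SE 0.09). Nip7 was not called in LPS_IFNg_TubB against LPS_IFNg (adjusted p = 0.0639).

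The sizes of the change were alike in the 2 separate comparisons. Over the 43 members, which share the 8 libraries and their depths, the log2 fold changes of TubB against mock and of LPS_IFNg_TubB against LPS_IFNg had Pearson's r of 0.954 and Spearman's rho of 0.928, and over all 11081 genes r was 0.922. In the plot of one comparison against the other, most members lie near the line of equal change. Tsr1 and Gar1 lie farthest from it. Tsr1 had -0.53 (SE 0.13) in the first and -1.06 (SE 0.14) in the second, and Gar1 had -1.19 (SE 0.13) and -0.78 (SE 0.14).

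The test of that difference, the interaction of the labels, called 0 members and 0% of all genes as lower and 0% as higher. Before adjustment, Tsr1 (-0.53, SE 0.20, unadjusted p = 0.0109) and Gar1 (0.41, SE 0.19, unadjusted p = 0.0434) were the 2 members under 0.05. Their edgeR adjusted p was 0.9999.

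**Figure D3:**
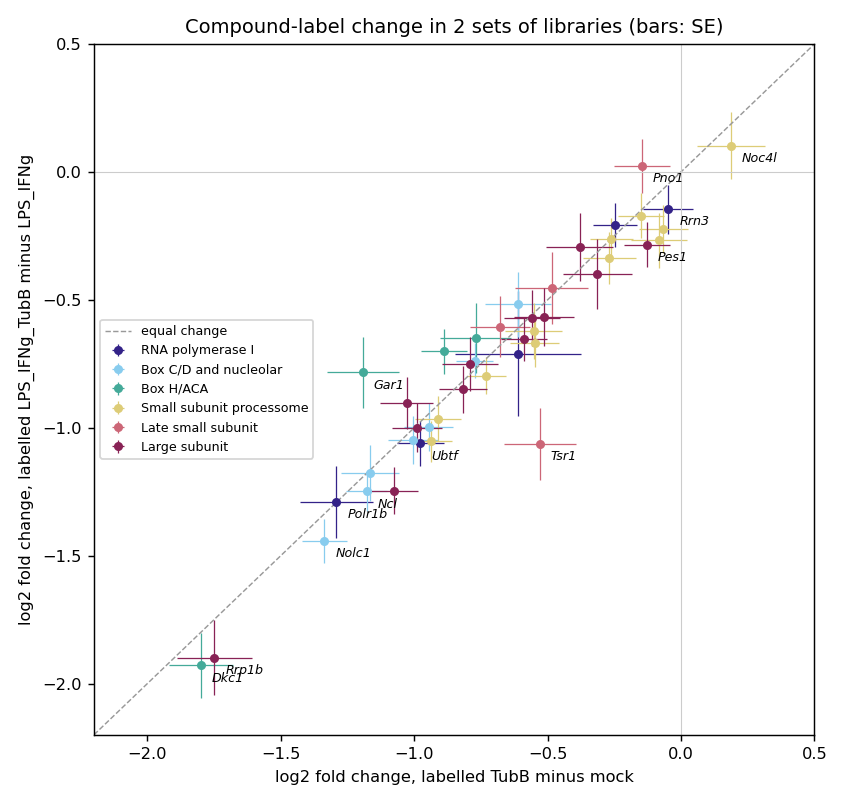
Log2 fold change of each of the 43 members with SE bars, in libraries labelled TubB against mock (x axis) and LPS_IFNg_TubB against LPS_IFNg (y axis), coloured by role, with a dashed line of equal change. Dkc1 and Rrp1b lie at the lower left, Noc4l is positive on both axes, and Tsr1 and Gar1 lie farthest from the line.

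The stimulus label went with no called change. In LPS_IFNg against mock, in LPS_IFNg_TubB against TubB and in their average, edgeR called 0 members, and 0% of all genes, in either direction. The median change of the members was 0.01, -0.03 and -0.01, and in the average they ranged from -0.16 (Nip7) to 0.11 (Pno1). At an unadjusted p under 0.05 there were 0, 2 and 0 members, the 2 being Tsr1 (-0.35, SE 0.15) and Gnl3 (-0.21, SE 0.10) in LPS_IFNg_TubB against TubB. DESeq2, limma-voom and limma on the rlog values also called 0 members. Nos2, Ptgs2 and Il6 were at like levels on both sides of these comparisons (above).

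The members repeated closely between libraries. The median SD of log2 CPM within a group was 0.11 over the members and 0.14 over all tested genes. Among members, Spearman's rho of the mock level per kilobase with the average change was -0.37 (Pearson's r = -0.28, n = 43 genes in the same libraries). Nhp2 (153 CPM per kilobase), Mybbp1a (129) and Fbl (126) followed Npm1 and Ncl in level, and Polr1e (3.91) was the lowest.

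Of the members, 7 carry snoRNA genes inside them: Nop56, Nop58, Ncl, Dkc1, Wdr43, Gnl3 and Tsr1, with 19 snoRNA genes in the RefSeq annotation. The table at hand does not give the strand of 1 of these in each of Dkc1, Nop58 and Wdr43, and in Dkc1 it is the only one. They are 16.3% of the members, against 2.49% of 10164 tested protein-coding genes. Spliced-out introns of such host genes are the known source of most snoRNAs, which poly(A) libraries do not measure. All 7 members with a snoRNA gene inside were lower, with a median change of -1.16, and of the 36 other members 32 were lower, with a median of -0.61. This difference overlaps with role. Nop56, Nop58, Ncl and Dkc1 belong to the box C/D and box H/ACA groups, which had the lowest medians of the role groups, -1.03 and -0.89. The part of role in it was not tested. Of 246 other tested protein-coding genes with a snoRNA gene inside, 89 (36.2%) were lower and 70 higher, with a median of -0.08, and of 9911 tested protein-coding genes without one, 32.6% were lower.

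Other lists of the pathway had medians from -0.66 to -0.09. Of all tested genes, 31.5% were lower and 31.7% higher in the same average. Of 38 other small subunit processome genes tested, 27 were lower and 0 higher under the compound label, with a median of -0.39, led by Rcl1 (-1.06, SE 0.12) and Aatf (-0.95, SE 0.09). Of 49 other large subunit genes, 36 were lower and 4 higher, with a median of -0.43. Ppan was lowest there (-1.52, SE 0.08), while Sbds, which helps the new large subunit to shed an anti-association factor, was higher (1.23, SE 0.11). The other late small subunit genes were split, 5 of 9 lower and 1 higher (median -0.39), with Tsr2 at -0.80 (SE 0.13) and the kinase Riok3 at 1.05 (SE 0.06).

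Other particle factors and the exosome, which trims the precursor, come next. Of 9 other box C/D and H/ACA genes 7 were lower and 1 higher, with a median of -0.63, led by Tcof1 (-0.93, SE 0.06), which encodes the nucleolar protein treacle, and Ruvbl1 (-0.89, SE 0.08). Of 13 exosome genes 10 were lower and 1 higher, with a median of -0.66, led by Exosc6 (-1.20, SE 0.11) and Exosc5 (-1.02, SE 0.11). The cytosolic ribosomal proteins, the cargo of the pathway, had a median of -0.09, with 33 of 76 lower (43.4%, against 31.5% of all genes) and 7 higher (9.21%, against 31.7%), and the lowest were Rpl10a (-0.65, SE 0.17) and Rpl3 (-0.63, SE 0.05).

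The other polymerase genes had called members in both directions, apart from the shared subunits. Beside these counts stand the 31.5% of all genes that were lower and the 31.7% that were higher. Averaged over both comparisons, of 9 further polymerase I subunits and factors 4 were lower and 1 higher (median -0.14). Taf1a was at -0.51 (SE 0.21) and the termination factor Ttf1 at 0.50 (SE 0.14). The separate comparisons differed for this list. In TubB against mock 2 were lower and 0 higher (median -0.21). In LPS_IFNg_TubB against LPS_IFNg 4 were lower and 1 higher (median 0.01). The interaction called 0 of these genes but ranged from -0.98 to 0.38. An average such as that of Taf1a therefore need not hold in each comparison. The lists that follow are again given in the average. Of 5 subunits shared by the 3 polymerases, 3 were lower and 0 higher (median -0.35). Polr2f was at -0.65 (SE 0.10) and Polr2h at -0.38 (SE 0.13). Of 8 polymerase II subunits 4 were lower and 3 higher (median -0.13), with Polr2i at -0.56 (SE 0.17) and Polr2g at 0.54 (SE 0.08). Of 11 polymerase III subunits 7 were lower and 2 higher (median -0.32).

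**Figure D4:**
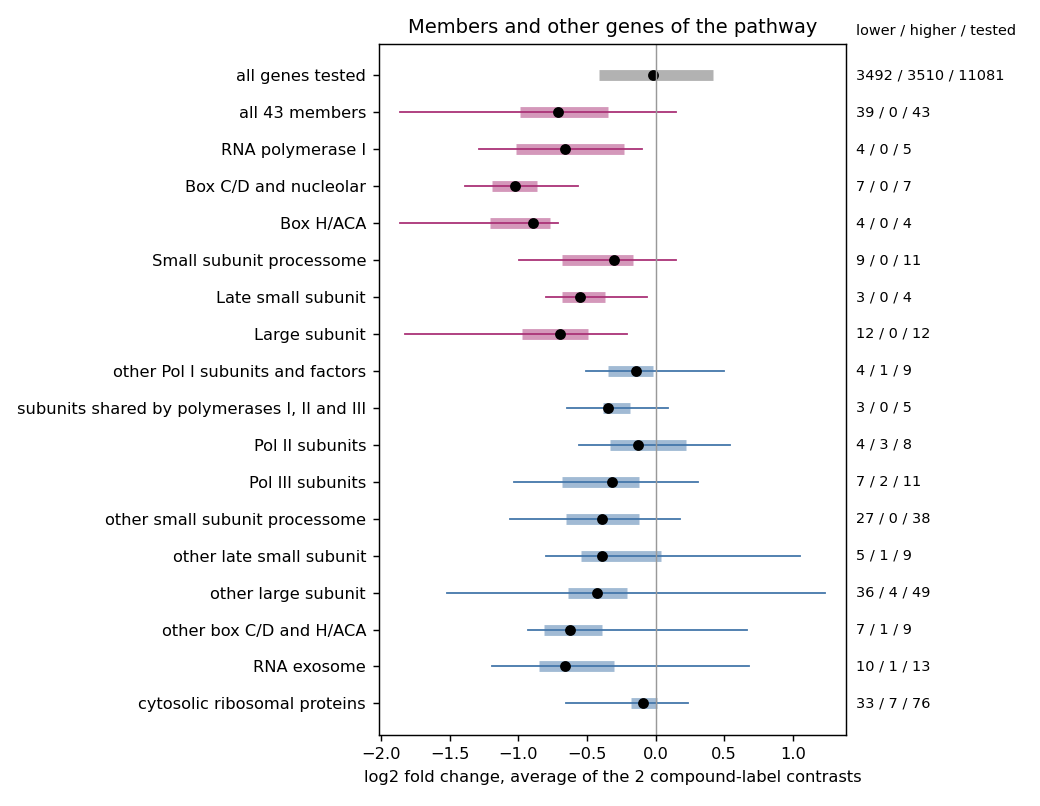
Log2 fold change averaged over the 2 compound-label comparisons (x axis) for all tested genes, the 43 members, their 6 role groups (red) and 10 other lists of the pathway (blue), where points are medians, thick bars the middle 50% and thin lines the range, with counts of lower, higher and tested genes on the right. The median of the box C/D and nucleolar members is lowest and that of all genes is -0.02.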

How the data were processed

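Poly(A) RNA of 8 libraries was analysed, 2 in each labelled group. The authors deposited raw counts per gene; alignment was by STAR 2.7.0 per the submitters' processing notes, and per the file headers reads were counted with featureCounts 2.0.1 over exons of a RefSeq annotation of GRCm38.p6, paired, with no option for strand or multi-mapped reads. Reads of genes with near-identical copies can therefore be missing. The deposited table also gives a summed exon length per the file headers, and a second deposited table holds regularised log2 values (rlog), used as an alternative.

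Counts were fitted with edgeR 4.0.16 (quasi-likelihood, TMM, robust, filterByExpr with minimum count 10 and total 15) in R 4.3.3, all 8 libraries in 1 fit with group as the term (4 residual degrees of freedom), with Benjamini-Hochberg adjustment and calls under 0.05. The average is the mean of the 2 compound-label comparisons. CPM are TMM-scaled, and the plot by library uses a prior count of 2. Fits were tested on simulated data. Values in every library are given for all polymerase I genes and, per role, the 3 called members with the lowest average change, and for other lists the 2 called genes with the largest change, except for the polymerase III list, whose genes are not reported here by name. Rrp12, Noc4l, Pno1 and Pes1 were added after their values were seen, as were the 6 promoters, picked from RefSeq entries. Members, lists and motifs were chosen with earlier results of these data known. Alternatives were RLE, upper-quartile or no scaling factors, other filters, a replicate block, fitting only the groups compared, DESeq2 1.42.0, limma 3.58.1 (voom and rlog), a 2-fold minimum and each library left out. The lowest count of a member in a library was 35 (Polr1e).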

Additional observations from a re-analysis of the deposited data

How the results depend on the processing

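Over the alternatives the members lower under the compound label kept close counts except with a 2-fold minimum, which left 10 in TubB against mock, 11 in LPS_IFNg_TubB against LPS_IFNg and 9 in the average, by its construction. Leaving out each library gave 29 to 36, 32 to 38 and 37 to 39 lower members, and 0 to 1, 0 to 0 and 0 to 1 higher ones, the 1 being Noc4l without TubB replicate 2. Leaving out libraries one at a time kept 28 of 36, 30 of 38 and 37 of 39 calls. The counts were 31, 33 and 37 with DESeq2 and 32, 33 and 36 on rlog values. With the replicate number as a block they were 36, 38 and 39. Over all tested genes the numbers do not show a pairing of the libraries, with correlations of deviations of -0.05 to 0.15 between groups. Over the members alone these correlations ranged wider, from -0.22 (TubB with LPS_IFNg) to 0.39 (mock with LPS_IFNg). The block changed no count by more than 1.5 times. Library totals alone moved the median of all genes from -0.02 to -0.23, and the share of lower calls among all called genes from 49.9% to 67.5% (57.3% with upper-quartile factors, 48.7% with RLE), with 42, 41 and 38 members lower in turn. Noc4l turned to -0.069 with library totals alone. Pno1 ranged from -0.163 (without TubB replicate 2) to 0.025 (without TubB replicate 1) when libraries were left out, turning in the latter. It was called lower with library totals alone (-0.27, adjusted p = 0.00345), and the cause was not tested. For 27 of the members, the average change was followed under the alternatives, which gave 486 values. Of these, 445 kept their side of the threshold and direction, 33 lost the call, 6 gained one and 2 turned. The 33 include calls lost to the 2-fold minimum, which leaves the values themselves unchanged. Apart from that setting, 36 of the 39 lower calls in the average held under every alternative, and those of Utp15, Bms1 and Pes1 did not. The 2 separate comparisons and the other members are not in this count. The stimulus label and the interaction gave 0 members in every alternative. With 2 libraries a group the precision rests on spread shared across genes. Counting error weighs most on the scarcest members, with as few as 35 counts of Polr1e and 98 of Rrp1b in a library.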
